A study of Mus musculus with 26 samples.

Results

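Among aged mice without the transcription factor Slug, cells sorted as luminal-basal were compared with cells sorted as basal. The comparison used 4 of the 26 libraries of the series. They were 2 luminal-basal and 2 basal libraries, 1 of each from pools A5 and A6. All came from mammary glands of B6.129S1 mice aged 12 months with the genotype Snai2-LacZ/LacZ, so the control side of the comparison is null for Snai2 as well. Each pool joined cells of 3 mice, which were sorted by fluorescence on the surface proteins EpCAM and CD49f. The limits of the gates between luminal-basal and basal cells were not used here. Wild-type and null glands, at 3 and 12 months, make up the rest of the series.

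The members were chosen by the levels of Krt14 and Col1a1, on which the labels of 2 pool A5 libraries were treated as exchanged. The library labelled A5 stromal held 1025 CPM of Krt14, a keratin of basal cells, and 23.9 CPM of Col1a1, a fibroblast collagen, whereas in the library labelled A5 luminal-basal Krt14 was at 34.8 CPM and Col1a1 at 1218 CPM. CPM are read counts scaled to a common library size. The luminal-basal group was therefore formed by A6 luminal-basal and the library labelled A5 stromal, which is called A5 luminal-basal (exchanged) from here on. Since these 2 genes set the exchange, their values are given as a description without a test. Genes that go with Krt14 or Col1a1 may follow the same choice, and for this reason the counts of each gene list are also given with A6 luminal-basal alone, whose label was not changed. Of 101 calls of genes named by rule 93 held with A6 alone, and those lost were Esr1, Hspa1a, Jun, Junb, Ltf, Pcna, Slitrk4 and Zfp36.

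The mammary duct has an inner layer of luminal cells, which includes the cells that make milk, and an outer layer of basal cells, also called myoepithelial cells, which contract and rest on the basement membrane. Basal cells carry keratins 5 and 14, the transcription factor p63 and smooth-muscle proteins. Slug, encoded by Snai2, is a zinc-finger repressor found mainly in the basal layer, where it holds back luminal genes and binds E-box sequences in promoters. Blood vessels run through the gland beside the ducts. Their endothelial cells carry CD49f on the surface as well, together with Pecam1, and pericytes surround them.

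Library totals were 6511920 counts for A5 luminal-basal (exchanged), 5370328 for A6 luminal-basal, 4730544 for A5 basal and 3194330 for A6 basal. The 2 libraries of pool A6 had the fewest genes with a count of all 26 libraries, 13285 in A6 basal and 14756 in A6 luminal-basal, against 15983 in the next. Across genes, log2 CPM of A5 luminal-basal (exchanged) correlated at 0.947 with the mean of the null 3-month luminal-basal libraries and at 0.792 with wild-type 12-month stroma. For A6 luminal-basal these were 0.896 and 0.769. The library labelled A5 luminal-basal gave 0.889 and 0.945. These correlations are across genes, which are not independent replicates. Differences are given as log2 fold changes of luminal-basal over basal ± SE. The SE was derived from the test, as the absolute log2 fold change divided by the square root of its F statistic. Each p was taken from the quasi-likelihood test of edgeR and adjusted after Benjamini and Hochberg over 15917 genes. With 2 pools a group and the pool as a block, shifts shared by all libraries of a pool are removed. The p-values then measure how differences between groups vary from pool to pool, with the spread estimated over all 26 libraries.

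Snai2 itself, a protein-coding gene on the plus strand of chromosome 16 (GRCm38, 14705852 to 14709385, ENSMUSG00000022676), carries the LacZ allele of the null line. It had 0 counts in both luminal-basal libraries and 1 and 0 counts in A5 and A6 basal, against 192 and 384 in the wild-type basal libraries of the same age. The 0 counts allow up to 0.482 CPM in A5 luminal-basal (exchanged) and 0.576 CPM in A6 luminal-basal, by counting error only. No difference between the groups was detectable at this depth (adjusted p = 0.347).

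The groups differed in the markers of cell types. Krt14 (ENSMUSG00000045545, chromosome 11, positions 100203162 to 100207548, minus strand) was at 1025 and 719 CPM in A5 and A6 luminal-basal and at 10.5 and 27.9 CPM in A5 and A6 basal. So the libraries labelled basal were low in the defining basal keratin, which averaged 356 ± 69.2 CPM (SD, n = 2) in wild-type basal cells of 12 months and 42.9 CPM in null luminal cells. Epcam (ENSMUSG00000045394, chromosome 17, positions 87635979 to 87651129, plus strand), the gene of the sorted epithelial surface protein, was at 677 and 713 CPM in luminal-basal and at 98.3 and 94.8 CPM in the basal-labelled libraries. Pecam1 (ENSMUSG00000020717, chromosome 11, positions 106654217 to 106750628, minus strand), which encodes the endothelial adhesion protein CD31, ran the other way, at 7.87 and 40.3 CPM in luminal-basal and at 594 and 595 CPM in the basal-labelled libraries. For Epcam and Pecam1 the groups did not overlap. Epcam was higher by 2.85 ± 0.44 (adjusted p = 0.000205) and Pecam1 lower by a log2 fold change of -4.72 ± 0.62 (adjusted p = 5.06e-05), and with A6 luminal-basal alone these were 3.03 (adjusted p = 0.000957) and -3.67 (adjusted p = 0.000444). In bulk RNA, fewer cells of a type and less RNA per cell cannot be told apart.

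**Figure D1:**
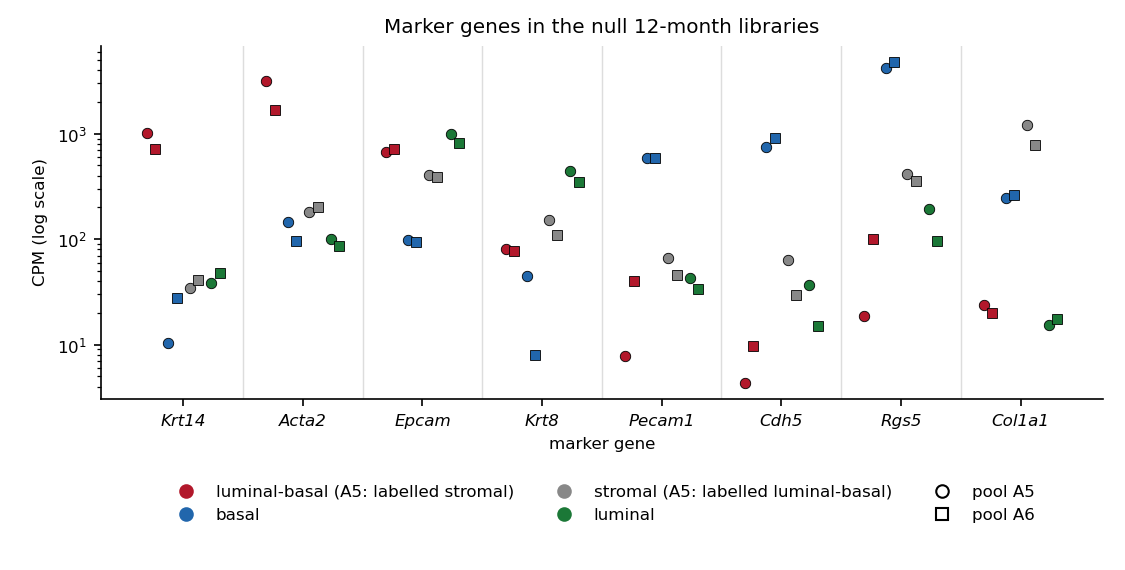
Levels in CPM (log scale) of 8 marker genes in the 8 null 12-month libraries, with circles for pool A5, squares for pool A6 and colours for the groups after the exchange of the 2 A5 labels. Acta2 was highest in luminal-basal libraries, Pecam1, Cdh5 and Rgs5 in the libraries labelled basal, where Pecam1 was at 594 and 595 CPM. Krt14 and Col1a1 chose the exchange.

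Over all genes, 1881 of 15917 were higher in luminal-basal cells (11.8%) and 1977 were lower (12.4%). The count of every gene list below is to be read beside these shares. With A6 luminal-basal alone, a fit in which the lone library is assumed to vary like the other groups, 1995 (12.5%) were higher and 1833 (11.5%) lower. Of the 1881 genes called higher 1439 were also called with A6 alone, which is 76.5% of the first list and 72.1% of the second. Among the 1977 called lower it was 1331, or 67.3% and 72.6%, and 0 genes changed sides. The fit with A6 alone shares A6 luminal-basal and both basal libraries with the main fit, so this overlap is not an independent check. Compared between pools, the log2 differences within A5 and within A6 correlated at 0.503 across tested genes. They had the same sign in 59.8% of tested genes. The median called gene was higher by 2.30 or lower by a log2 fold change of -3.19, and 440 and 752 genes were at least 16-fold apart in the fit. In 159 of the genes called higher the basal-labelled libraries had no count, and in 183 of those called lower the luminal-basal libraries had none. The median log2 fold change of all tested genes was 0.09. The count of higher genes fell to 1063 without A6 basal and to 1214 without A6 luminal-basal, and was 2984 without A5 basal.

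The outer-layer program was carried almost whole by the luminal-basal cells. Of 18 tested basal and myoepithelial genes other than Krt14, 17 were higher and 0 lower, with a median log2 fold change of 4.17, and 16 were higher with A6 alone. Summed over these 18 genes, without Krt14, the libraries held 15226 and 12589 CPM in A5 and A6 luminal-basal and 1509 and 1406 CPM in A5 and A6 basal. Krt5, the partner of keratin 14 in the same filaments, was at 1411 and 1918 CPM in A5 and A6 luminal-basal and at 33.7 and 36.5 CPM in A5 and A6 basal (5.55 ± 1.03, adjusted p = 0.000929). Trp63, which encodes p63, was at 396 and 577 against 7.56 and 44.8 CPM (4.40 ± 0.85, adjusted p = 0.00119). Both genes lay apart between the groups by more than 10 times in each pool.

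Contractile genes of this list were among those called. Acta2, the gene of smooth-muscle actin, was at 3177 and 1661 CPM in A5 and A6 luminal-basal and at 146 and 96.1 CPM in A5 and A6 basal (4.30 ± 0.50, adjusted p = 1.68e-05). Myh11, of smooth-muscle myosin, was at 3300 and 2427 against 372 and 210 CPM (3.31 ± 0.50, adjusted p = 0.000155). Pericytes and arterial muscle use both proteins as well, and the part of such cells in these levels was not tested. Oxtr, the receptor for oxytocin that triggers milk ejection, was at 761 and 704 against 15.5 and 1.38 CPM (6.47 ± 0.97, adjusted p = 0.000149).

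Members that tie basal cells to the basement membrane differed in their calls. Col17a1, a collagen of hemidesmosomes, was at 589 and 515 CPM in luminal-basal and at 7.37 and 1.03 CPM in basal-labelled cells (7.04 ± 0.93, adjusted p = 5.12e-05). The member that did not pass was Itga6, the gene of the sorted protein CD49f, at 946 and 790 against 390 and 377 CPM (1.18 ± 0.45, adjusted p = 0.0687). With A6 alone Itgb4, its integrin partner, also missed the threshold (1.62, adjusted p = 0.0543).

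Luminal genes were also higher than in the basal-labelled libraries, but less evenly. Of 14 tested 8 were higher and 0 lower, with a median of 1.74, and 9 were higher with A6 alone and 5 without A6 luminal-basal. The surface protease inhibitor gene Spint1 was at 112 and 91 CPM in A5 and A6 luminal-basal and at 4.65 and 3.45 CPM in A5 and A6 basal (4.63 ± 0.53, adjusted p = 1.06e-05). Spint2, of a related inhibitor, was at 89.9 and 74.3 against 7.76 and 7.92 CPM (3.39 ± 0.51, adjusted p = 0.000128). Cdh1, which encodes E-cadherin, was at 397 and 558 against 60.7 and 95.8 CPM (2.61 ± 0.47, adjusted p = 0.000762). The luminal keratins were closer together. Krt8 was at 80.7 and 77.7 CPM in luminal-basal and at 44.4 and 7.92 CPM in basal-labelled cells (1.80 ± 0.56, adjusted p = 0.0271), a call that was lost without A6 basal (log2 fold change 0.95) and without A6 luminal-basal (1.33). Krt18, its partner, did not pass, at 78.5 and 109 against 48.9 and 76.5 CPM (0.59 ± 0.38, adjusted p = 0.273). Both keratins were below null luminal cells of the same age, which averaged 394 CPM of Krt8 and 531 CPM of Krt18. They were also below the wild-type basal libraries of 12 months. Those held Krt8 at 182 and 171 CPM and Krt18 at 188 and 158 CPM. Summed over the 14 luminal genes, levels were 2112 and 2653 CPM in luminal-basal and 490 and 610 CPM in basal-labelled libraries. The wild-type basal libraries held 1995 and 1987 CPM.

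Lineage genes of the inner layer did not share a direction. Their counts are to be read beside the 11.8% of all genes called higher and 12.4% called lower. Of 10 genes of hormone-sensing luminal cells 1 was higher and 3 were lower, with a median of 0.07, while with A6 alone 1 was higher and 2 were lower. Without A6 basal and without A6 luminal-basal 0 were higher and 1 was lower. The progesterone receptor gene Pgr was at 24.6 and 38.6 against 10.9 and 6.89 CPM (1.80 ± 0.53, adjusted p = 0.0204), a call lost without A6 basal, without A6 luminal-basal and without the pool as a block. The estrogen receptor gene Esr1 was at 9.63 and 10.7 CPM in luminal-basal and at 10.3 and 69.3 CPM in A5 and A6 basal, so that its call (-1.68 ± 0.56, adjusted p = 0.0379) rested on A6 basal, and it was lost with A6 luminal-basal alone (adjusted p = 0.0546). Ly6a, of the surface antigen Sca-1 that endothelial cells carry as well, was at 4.49 and 2.11 against 192 and 209 CPM (-5.97 ± 0.69, adjusted p = 1.48e-05). Of 14 secretory luminal genes 2 were higher and 1 lower, against 3 higher and 0 lower with A6 alone and 0 higher and 5 lower without A6 luminal-basal. Mfge8, a milk-fat globule protein gene also active in basal cells, was at 164 and 107 against 81.4 and 42.4 CPM (1.19 ± 0.30, adjusted p = 0.00715).

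Junction genes were partly higher. Cdh1 stands in this list and in the luminal list. Elf3, Ehf, Elf5 and Trp63, among the regulators below, belong to other lists as well. Of 14 genes of epithelial junctions and adhesion 9 were higher and 0 lower, with a median of 3.27, and 9 were higher with A6 alone. Dsp, which encodes desmoplakin of desmosomes, was at 1057 and 1522 CPM in A5 and A6 luminal-basal and at 52.4 and 38.6 CPM in A5 and A6 basal (4.83 ± 0.56, adjusted p = 1.48e-05). Pkp3, of the desmosomal plaque, was at 66.5 and 69.3 against 0.776 and 2.07 CPM (5.68 ± 0.83, adjusted p = 0.000113). Of 11 regulators of epithelial identity 6 were higher and 0 lower (median 2.06), and 7 were higher with A6 alone. The transcription factor gene Grhl2 was at 82.8 and 88.5 against 3.88 and 1.72 CPM (4.90 ± 0.56, adjusted p = 1.06e-05), and Esrp1, of an epithelial splicing regulator, at 98.2 and 183 against 7.17 and 17.9 CPM (3.53 ± 0.43, adjusted p = 1.63e-05). Lower in neither pool but below the threshold were the ETS-family genes Elf3 and Elf5, with 0.59 ± 0.63 and 0.83 ± 0.64. Ehf, another ETS-family gene of the list, had its lowest log2 fold change, -0.66, and was not called.

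Promoters of 3 of these epithelial genes are shown because Slug and its relatives bind E-boxes, here searched as CAGGTG or its reverse complement CACCTG. The windows run from 250 bases before to 50 bases after the RefSeq gene start (GRCm38.p6), 5′ to 3′ on the gene's strand, with the motif in capitals. Epcam lies at chr17:87635729-87636028 (plus strand), Spint2 at chr7:29281928-29282227 (minus strand) and Krt5 at chr15:101712856-101713155 (minus strand).
Epcam: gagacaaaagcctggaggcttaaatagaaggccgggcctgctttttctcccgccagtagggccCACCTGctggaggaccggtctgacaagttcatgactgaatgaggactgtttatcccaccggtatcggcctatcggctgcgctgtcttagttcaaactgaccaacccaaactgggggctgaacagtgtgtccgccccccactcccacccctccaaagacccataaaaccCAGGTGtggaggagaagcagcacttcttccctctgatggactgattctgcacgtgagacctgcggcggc
Spint2: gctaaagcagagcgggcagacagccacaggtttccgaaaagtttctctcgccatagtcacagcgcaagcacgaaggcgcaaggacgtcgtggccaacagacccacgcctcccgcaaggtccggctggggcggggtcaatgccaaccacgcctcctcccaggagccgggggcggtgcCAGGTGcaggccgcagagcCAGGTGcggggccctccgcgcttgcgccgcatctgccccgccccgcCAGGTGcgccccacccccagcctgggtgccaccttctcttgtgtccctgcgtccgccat
Krt5: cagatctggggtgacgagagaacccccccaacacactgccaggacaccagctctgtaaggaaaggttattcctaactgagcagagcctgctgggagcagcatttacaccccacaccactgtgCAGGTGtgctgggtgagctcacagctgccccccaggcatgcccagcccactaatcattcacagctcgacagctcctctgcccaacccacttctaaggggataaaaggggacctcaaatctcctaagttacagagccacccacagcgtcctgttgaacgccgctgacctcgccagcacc
The Epcam window held 2 matches, the Spint2 window 3 and the Krt5 window 1. A match was held by 20.0% of all 27025 promoters of that length. Among genes with an entry it was held by 8 of 10 luminal, 4 of 8 junction and 2 of 8 basal genes. Lists that were not called mainly higher also held it, with 5 of 9 hormone-sensing and 3 of 7 leukocyte genes. The share was 21.7% of 1338 promoters of genes called higher and 14.1% of 1380 of genes called lower. A match describes letters in this window and is not a bound site, and both groups lack Snai2.

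Endothelial genes were lower in luminal-basal cells without exception in the list. All 22 tested genes of blood endothelium were lower, with a median of -6.54, and with A6 alone 21 were lower, the exception being Eng (-1.68, adjusted p = 0.0767). Their summed level was 76.7 and 219 CPM in A5 and A6 luminal-basal and 6354 and 6280 CPM in A5 and A6 basal, beside 1095 and 1476 CPM in the wild-type basal libraries. Cdh5, which encodes the cadherin of endothelial junctions, was at 4.33 and 9.79 against 753 and 913 CPM (-6.87 ± 0.76, adjusted p = 1.07e-05). Emcn, of the sialomucin endomucin of capillaries and veins, was at 2.89 and 0.576 against 181 and 197 CPM (-6.86 ± 0.65, adjusted p = 2.21e-06). Esam, an endothelial adhesion gene, had 3 counts in the luminal-basal libraries together, a ratio of 524 in favour of the basal-labelled libraries (95% exact interval 179 to 2544, counting error only), and its adjusted p was 5.09e-07. Cldn5, the claudin of vessel walls, had 0 counts in both luminal-basal libraries and 57.8 and 55.8 CPM in A5 and A6 basal, and was thus at least 218-fold lower against 3 counts over the group.

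Lymphatic vessels were represented by the same split. Of 7 lymphatic genes 5 were lower and 1 was higher, with the same counts for A6 alone. Prox1, the transcription factor gene that sets lymphatic identity, was at 2.25 and 0.192 CPM in A5 and A6 luminal-basal and at 81.8 and 31.4 CPM in A5 and A6 basal (-5.54 ± 0.77, adjusted p = 5.88e-05). Ccl21a, of a chemokine made by lymphatic endothelium, was at 1.12 and 0.384 against 354 and 195 CPM (-8.47 ± 0.81, adjusted p = 2.37e-06). Mmrn1, another lymphatic gene, had 3 counts in luminal-basal, a ratio of 733 (interval 250 to 3558). The 1 higher gene was Pdpn, whose product podoplanin is also made by basal mammary cells, at 34.7 and 43.2 against 4.46 and 3.1 CPM (3.29 ± 0.53, adjusted p = 0.000224).

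Signalling between vessels and their surroundings was uneven between ligands and receptors. The receptor list shares Kdr, Flt1, Tek, Tie1, Aplnr and Eng with the blood endothelial list and Flt4 with the lymphatic list. Those genes are thus counted again here. List counts are to be read beside the 11.8% of all genes called higher and 12.4% called lower. Of 15 vascular ligand genes 5 were lower and 1 was higher, with a median of -0.51, and with A6 alone 5 were lower and 2 higher. Dll4, the Notch ligand of sprouting vessels, was at 0.321 and 0.96 CPM in luminal-basal and at 60.9 and 128 CPM in basal-labelled cells (-7.18 ± 0.92, adjusted p = 2.93e-05). Angpt2, of angiopoietin 2, was at 0.963 and 0 against 47.3 and 13.1 CPM (-5.80 ± 0.89, adjusted p = 0.000148). Vegfa, which encodes the main attractant of endothelial cells, did not pass, at 88.4 and 190 against 140 and 252 CPM (-0.51 ± 0.31, adjusted p = 0.23), and the groups overlapped. Vegfb, of a related factor, was the 1 ligand gene that was higher, at 10.4 and 31.5 against 6.01 and 0.689 CPM (2.36 ± 0.83, adjusted p = 0.0463), and without A6 basal 0 ligand genes were higher.

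Of 15 receptor genes 13 were lower and 0 higher, with a median of -6.46, and 12 were lower with A6 alone. Kdr, the principal receptor for VEGF-A, was at 1.28 and 0.96 CPM in A5 and A6 luminal-basal and at 306 and 256 CPM in A5 and A6 basal (-7.99 ± 0.76, adjusted p = 2.3e-06). Flt4, the receptor of lymphatic endothelium, was at 0.963 and 0.192 against 340 and 318 CPM (-9.27 ± 1.06, adjusted p = 1.39e-05). S1pr1, which binds sphingosine 1-phosphate, was at 3.85 and 0.96 against 227 and 245 CPM (-6.67 ± 0.54, adjusted p = 5.09e-07). Those that did not pass were Notch1 (-1.71 ± 0.64, adjusted p = 0.0603) and the widely used BMP receptor gene Bmpr2 (-0.38 ± 0.21, adjusted p = 0.203), the latter at 549 and 429 against 656 and 607 CPM. Among 12 target genes of these pathways 6 were lower and 1 was higher, with a median of -3.12, or -2.62 with genes at 0 in a group set to their bound, and 7 were lower and 1 higher with A6 alone. Heyl, a Notch target of pericytes, was at 1.28 and 0 against 33.2 and 78.6 CPM (-6.42 ± 0.97, adjusted p = 0.000146), and the BMP and TGF-beta feedback gene Smad7 was higher, at 124 and 131 against 75.2 and 64.8 CPM (0.88 ± 0.31, adjusted p = 0.0476). This call did not hold under RLE scaling, with DESeq2, with all genes unfiltered, in the 8 null 12-month libraries alone, without the pool as a block, without A6 basal, without A6 luminal-basal or without both A5 libraries of exchanged label.

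The promoter of Tie1, a receptor gene of endothelial cells, is shown as the endothelial counterpart of the windows above, at chr4:118489800-118490099 (GRCm38.p6, minus strand). Capitals mark AGGAAG or its reverse complement CTTCCT, which holds the GGAA core of ETS-family factors.
Tie1: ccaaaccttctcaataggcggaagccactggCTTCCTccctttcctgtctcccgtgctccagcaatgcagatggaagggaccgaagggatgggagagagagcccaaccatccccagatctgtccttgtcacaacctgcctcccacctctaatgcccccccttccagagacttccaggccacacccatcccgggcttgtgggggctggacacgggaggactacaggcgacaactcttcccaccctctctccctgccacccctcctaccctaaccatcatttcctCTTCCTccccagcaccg
This window held 2 such matches and 0 E-box matches. AGGAAG was held by 35.1% of all promoters and by 33.0% of those of tested genes. It was held by 37.6% of those of genes called lower and by 30.2% of those called higher. Of 10 blood endothelial genes with an entry 6 held it and 0 held the E-box. It was held by 1 of 6 lymphatic and 0 of 7 pericyte genes, and by 6 of 9 hormone-sensing, 6 of 10 secretory luminal, 5 of 7 leukocyte and 4 of 5 skeletal muscle genes. Tie1 itself was at 0.963 and 0.192 CPM in luminal-basal and at 77.2 and 55.5 CPM in basal-labelled cells (-6.85 ± 1.07, adjusted p = 0.000173).

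Mural cells of vessels stood on the side of the endothelium. Of 9 tested pericyte and vascular smooth muscle genes 7 were lower and 0 higher, with a median of -5.40, and 7 were lower with A6 alone. Rgs5, a regulator of G-protein signalling known from pericytes, was the most abundant, at 18.8 and 99.4 CPM in A5 and A6 luminal-basal and at 4173 and 4819 CPM in A5 and A6 basal (-6.33 ± 0.81, adjusted p = 4.13e-05), beside 486 ± 65.7 CPM in wild-type basal cells. Pdgfrb, of the receptor that draws pericytes to vessels, was at 3.37 and 3.84 against 160 and 145 CPM (-5.40 ± 0.74, adjusted p = 7.26e-05). Des, which encodes desmin, was at 1.12 and 0.384 against 52.2 and 42.7 CPM (-5.94 ± 0.74, adjusted p = 2.24e-05). Mcam, of an adhesion protein shared by pericytes and other cells, did not pass, at 203 and 105 against 56.6 and 127 CPM (0.74 ± 0.61, adjusted p = 0.392).

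**Figure D2:**
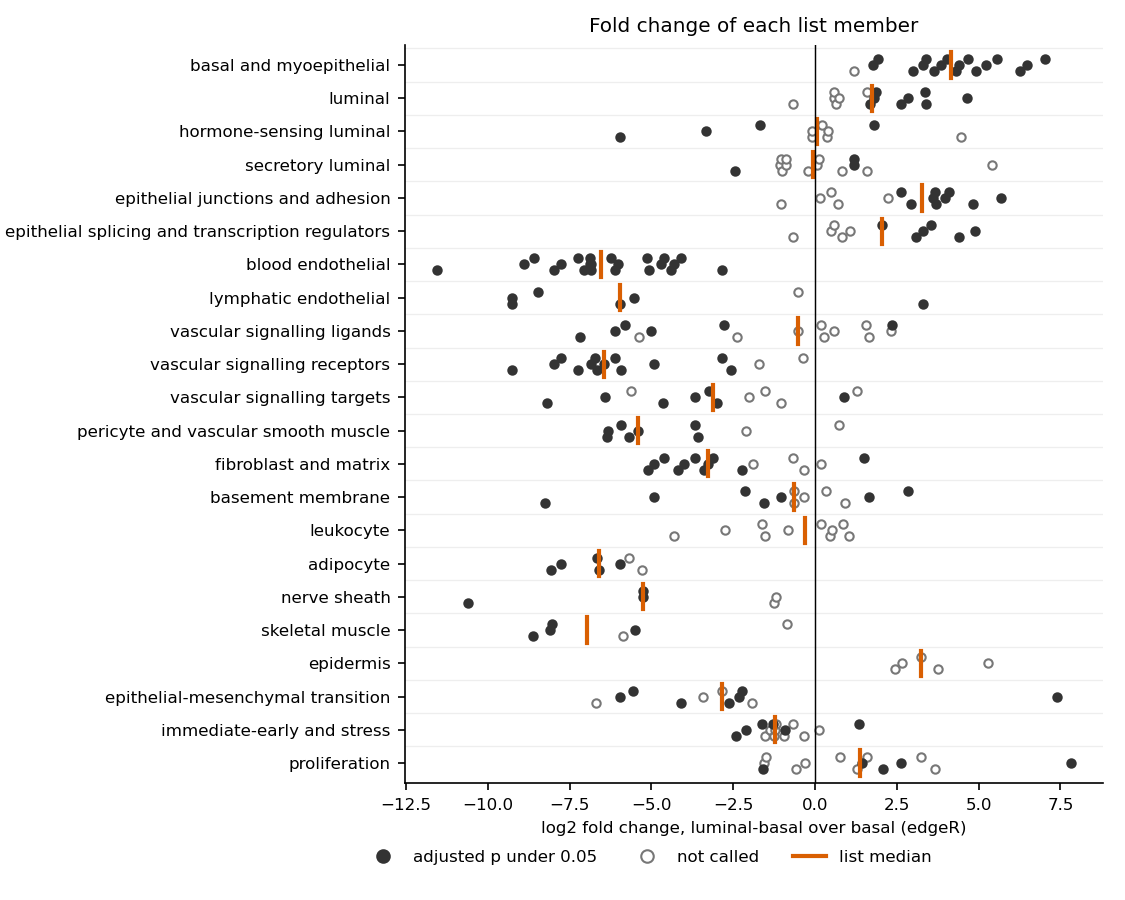
Log2 fold change of each tested member of 22 gene lists (edgeR, luminal-basal over basal), with filled points for genes called at an adjusted p under 0.05 and an orange bar for the list median; Krt14 and Col1a1 are left out. Basal genes centre on 4.17 and blood endothelial genes on -6.54.

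Fibroblast genes were mostly lower. Of 15 fibroblast and matrix genes other than Col1a1 10 were lower and 1 was higher, with a median of -3.29, and the same counts held with A6 alone. Lum, of the collagen-binding lumican, was at 7.22 and 3.84 CPM in luminal-basal and at 189 and 190 CPM in basal-labelled cells (-5.09 ± 0.85, adjusted p = 0.000372). It averaged 1210 ± 219 CPM in null stroma after the exchange, so the basal-labelled libraries lay between. Thy1, a surface antigen of fibroblasts, was at 2.57 and 4.61 against 70.2 and 44.4 CPM (-4.01 ± 0.59, adjusted p = 0.00013). Postn was the gene that was higher, at 1616 and 1340 against 574 and 482 CPM (1.48 ± 0.31, adjusted p = 0.00222). It encodes the matrix protein periostin and averaged 1005 ± 21.8 CPM in wild-type basal cells.

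Components of the basement membrane, which both myoepithelium and vessels build, were called in both directions. Beside them stand the 11.8% of all genes called higher and 12.4% called lower, and the count of higher genes is small. Of 12 genes 2 were higher and 5 were lower, and with A6 alone 1 was higher and 7 were lower. Agrn, of the proteoglycan agrin, was at 266 and 207 CPM in A5 and A6 luminal-basal and at 43.8 and 23.1 CPM in A5 and A6 basal (2.85 ± 0.38, adjusted p = 4.3e-05). Nid1, of nidogen 1, was at 24.4 and 11.9 against 568 and 505 CPM (-4.93 ± 0.63, adjusted p = 3.9e-05). Lama4, the laminin chain of vessel walls, was at 46.5 and 38 against 176 and 195 CPM (-2.13 ± 0.31, adjusted p = 0.000106).

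Adipocyte, nerve sheath and skeletal muscle markers moved with the basal label, while leukocyte markers did not. The part of these cell types in the results was not tested. All 7 adipocyte genes tested were lower in both pools and 5 were called, as with A6 alone, with a median of -6.62 (-5.97 with genes at 0 in a group at their bound), and their summed level was 33.5 and 67.9 CPM in luminal-basal and 7177 and 6120 CPM in basal-labelled cells. That sum was carried by Fabp4, at 3495 and 3100 CPM in A5 and A6 basal, and Cd36, at 2968 and 2434 CPM, which capillary endothelium expresses as well, while the adipocyte hormone gene Adipoq was at 0.194 and 2.41 CPM. Of 5 nerve sheath genes 3 were lower (4 with A6 alone), with summed levels of 52.3 and 33.4 against 143 and 355 CPM. Cdh19, a cadherin gene of Schwann cells, had 0 counts in luminal-basal and 16.5 and 54.8 CPM in A5 and A6 basal, at least 115-fold lower. Of 6 skeletal muscle genes 4 were lower (median -6.96, or -4.47 with bounds), as with A6 alone, and 3 were lower without A6 basal and 2 without A6 luminal-basal. Tnnt3, of troponin, was at 22.4 CPM in A6 basal and 1.16 CPM in A5 basal, and its call was lost without A6 basal. Of 10 leukocyte genes edgeR called 0 and DESeq2 0, and 1 was lower at an unadjusted p under 0.05. Their summed levels were 50.4 to 123 CPM in the 4 libraries, the lowest in A5 basal and the highest in A6 basal. Single libraries moved some of them. The log2 fold change of Cd68 was -1.63 in the main fit and -3.39 without A6 luminal-basal. That of Cd74 was 0.46 and, without A6 basal, 2.35.

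Genes of epithelial-mesenchymal transition, relatives of Slug among them, were mixed. Of 11 such genes 6 were lower and 1 was higher, with a median of -2.83, and 6 were lower and 0 higher with A6 alone. Zeb1, a zinc-finger repressor gene, was at 2.09 and 7.29 CPM in A5 and A6 luminal-basal and at 175 and 235 CPM in A5 and A6 basal (-5.55 ± 0.81, adjusted p = 0.000115). Zeb2 was at 8.51 and 4.22 against 350 and 462 CPM (-5.98 ± 0.76, adjusted p = 3.48e-05). Vim, which encodes vimentin, was at 157 and 174 against 705 and 857 CPM (-2.24 ± 0.38, adjusted p = 0.000379). Snai1, the nearest relative of Snai2, was lower (-2.32 ± 0.69, adjusted p = 0.0204), but not with A6 alone (adjusted p = 0.0832). Snai3, of a further family member, was found in the luminal-basal libraries alone among these 4, at 4.01 and 3.07 CPM, which is at least 9.63-fold higher than 0 counts in the basal-labelled libraries (adjusted p = 0.0386, and 0.117 with A6 alone). The call was lost with DESeq2 and when any 1 of the 4 libraries was left out. Snai3 was at 0.201 ± 0.284 CPM in wild-type basal cells and at 2.41 ± 2.67 CPM in null luminal-basal cells of 3 months.

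The largest differences of single genes were set by 0 counts in one group, so folds are lower bounds against 3 counts over that group. Gpihbp1 (ENSMUSG00000022579, chromosome 15, positions 75596628 to 75599481), which anchors lipoprotein lipase on capillary endothelium, had 0 counts in luminal-basal and 359 and 233 CPM in A5 and A6 basal, at least 1196-fold lower (adjusted p = 9.3e-08). Slc28a2, of a nucleoside transporter, was at 52.4 and 72 CPM there and at least 227-fold lower in luminal-basal. Hhex, a homeobox gene of endothelial and liver development, was at 31.6 and 39.6 CPM and at least 132-fold lower. Rorb and Xirp2 belonged to the same 12 largest falls, but lay mostly in A6 basal, with 99.9 and 87.9 CPM against 3.49 and 0.776 CPM in A5 basal. The others were H2-M9, Ctla2b, C1qtnf9, Slitrk4, Clec14a, Cldn5 and Cdh19.

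On the other side, Csdc2 (ENSMUSG00000042109, chromosome 15, positions 81936759 to 81950941), of an RNA-binding cold-shock protein, was at 44.3 and 36.3 CPM in A5 and A6 luminal-basal and at 0 counts in the basal-labelled libraries, at least 109-fold higher (adjusted p = 3.58e-05). Irx4, of the Iroquois homeobox family, was at 38 and 26.5 CPM and at least 88.1-fold higher. Kcnma1, of the large-conductance potassium channel of smooth muscle, was at 21.8 and 34.4 CPM and at least 74-fold higher, and the carbonic anhydrase gene Car12, at 30 and 31.5 CPM, at least 82.4-fold. Lpo, of the milk enzyme lactoperoxidase, and Dsg3, of a desmosomal cadherin, were uneven between pools, with 12.2 and 3.05 CPM in A5 against 100 and 74.5 CPM in A6 luminal-basal. Hpcal4, Mill1, Dio2, Phyhip and Il17b were also among the 12 largest rises. In wild-type basal cells of 12 months Csdc2 averaged 32.4 ± 16 CPM and Irx4 16.1 ± 6.77 CPM.

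**Figure D3:**
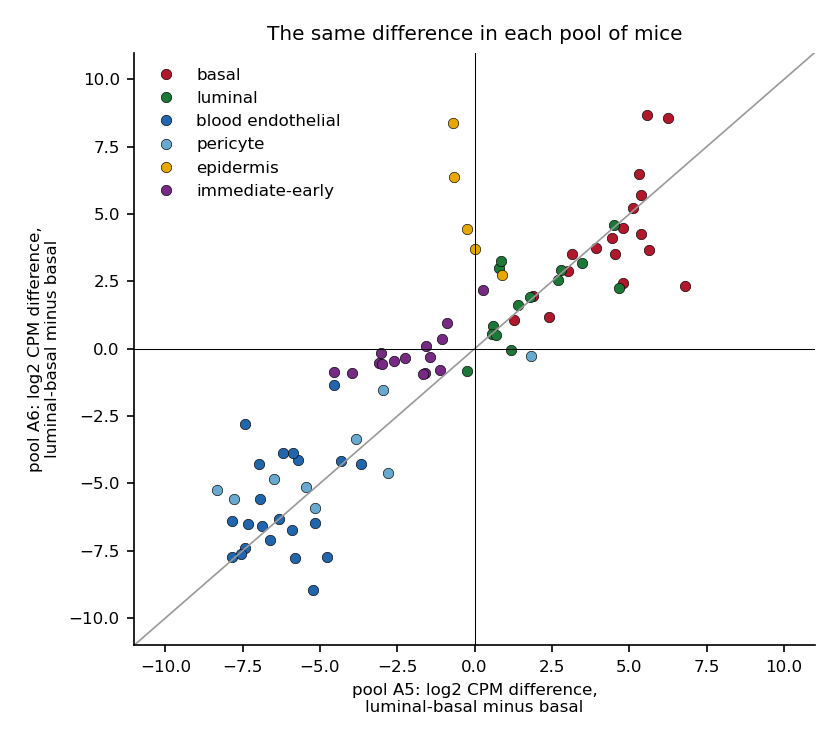
Difference in log2 CPM (edgeR, prior count 2), luminal-basal minus basal, within pool A5 (horizontal axis) and pool A6 (vertical axis) for the members of 6 lists, with the line of equality in grey. Basal and endothelial genes lie near the line at opposite ends, whereas epidermal genes rise in pool A6, with a list median of 4.46 against -0.24 in pool A5.

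The luminal-basal libraries themselves differed in several programs, and results that rest on one of them are given here with both values. Immediate-early and stress genes, which dissociation of tissue is known to induce, were lower in A5 luminal-basal (exchanged) than in A6 luminal-basal for 15 of 15 genes, with sums of 5978 and 27162 CPM against 35108 and 36634 CPM in A5 and A6 basal. Of these 15 genes 5 were called lower and 1 higher, but with A6 luminal-basal alone 0 were lower and 1 was higher. Without A6 luminal-basal 10 were lower, without A5 basal 2, and without the pool as a block 0. Jun, which encodes part of the AP-1 factor, was at 229 and 2087 CPM in A5 and A6 luminal-basal and at 3569 and 3850 CPM in A5 and A6 basal (-2.12 ± 0.62, adjusted p = 0.0191, and -0.95, adjusted p = 0.205, with A6 alone). The gene called higher was Egr2, a zinc-finger factor gene, at 223 and 750 against 183 and 165 CPM (1.34 ± 0.46, adjusted p = 0.0422). Its call was lost under RLE scaling, in the 8 null 12-month libraries alone, without A6 luminal-basal and without A6 basal.

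Epidermal genes set A6 luminal-basal apart, and A6 basal only in part. All 5 tested were higher in A6 than in A5 luminal-basal, and 3 of 5 were higher in A6 than in A5 basal. Krt6a went the other way in the basal-labelled libraries, at 9.69 CPM in A5 and 0 CPM in A6. Krt10, a keratin of upper skin layers, was at 0.642 and 282 CPM in A5 and A6 luminal-basal and at 0.194 and 42.4 CPM in A5 and A6 basal, and Krt1, its partner, at 0 and 240 against 0 and 17.9 CPM. Of 5 epidermal genes edgeR called 0 with both pools, although 5 were higher at an unadjusted p under 0.05 and 3 by DESeq2. With A6 luminal-basal alone edgeR called 4 higher, and without A5 basal 2. The summed level of the list was 8.99 CPM in A5 luminal-basal (exchanged), 744 CPM in A6 luminal-basal, 13.2 CPM in A5 basal, 62.7 CPM in A6 basal and 173 CPM in A6 luminal. Krt5 and Dsp are active in skin as well, and the part of skin cells in their levels was not tested. Casein genes of the secretory list, Csn2, Csn3, Csn1s1 and Csn1s2a, were each higher in both A6 libraries than in both A5 libraries, a set chosen after the values were seen. Csn2, of beta-casein, was at 9.79 and 39 CPM in A5 luminal-basal (exchanged) and A5 basal and at 1196 and 597 CPM in A6 luminal-basal and A6 basal (0.06 ± 0.78, adjusted p = 0.968).

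Genes of dividing cells were partly higher, to be read beside the 11.8% of all genes called higher and 12.4% called lower. Of 14 proliferation genes 4 were higher and 1 lower, with a median of 1.36, and 3 were higher and 0 lower with A6 alone. Top2a, of the topoisomerase that untangles chromosomes, was at 15.6 and 66.6 CPM in A5 and A6 luminal-basal and at 5.24 and 4.13 CPM in A5 and A6 basal (2.63 ± 0.70, adjusted p = 0.0114). Mki67, of the antigen Ki-67, was at 47.4 and 295 against 13.8 and 53.8 CPM (2.07 ± 0.67, adjusted p = 0.0326, and 0.127 with A6 alone), and the groups overlapped. Pcna, the replication clamp gene, was lower, at 49 and 146 against 226 and 332 CPM (-1.59 ± 0.34, adjusted p = 0.00264), but not with A6 alone (adjusted p = 0.0623). Without A6 basal or without A6 luminal-basal 0 of the 14 were called higher, and without A5 basal 7.

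**Figure D4:**
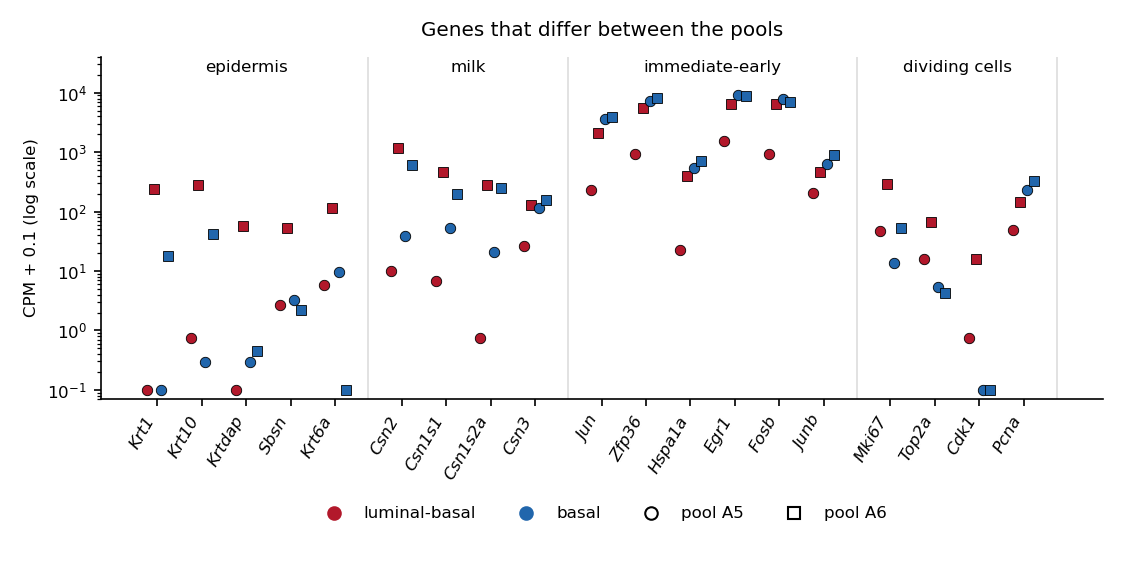
Levels as CPM + 0.1 (log scale) of epidermal, milk, immediate-early and cell-division genes in the 2 luminal-basal (red) and 2 basal (blue) libraries, circles for pool A5 and squares for pool A6. Epidermal genes stand out in A6 luminal-basal, with Krt1 at 0 and 240 CPM in A5 and A6 luminal-basal. Casein genes separate the pools, and immediate-early genes are lowest in A5 luminal-basal.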

How the data were processed

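RNA from sorted mammary cells of mice was sequenced in 26 libraries. Per the labels' protocols, cells of 3 mice were pooled per sort, and NuGEN Ovation V2 amplification started from 5 ng RNA. Per the submitters' processing notes, the authors used TopHat2 2.0.13, HTSeq and the GRCm38 build. Its settings, strand handling and annotation are not given in the sources used. The deposited values are whole-number read counts per gene for 45706 genes, of which 45143 matched GENCODE vM21 by identifier, from which positions were taken. The main limits of such counts are uneven amplification and reads shared by similar genes.

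The filter filterByExpr (counts of 10, totals of 15) kept 15917 genes. After TMM scaling, edgeR's robust quasi-likelihood fit covered all 26 libraries in 13 groups with the pool as a block, leaving 9 residual degrees of freedom. A call needed a p under 0.05 after Benjamini-Hochberg adjustment. Libraries were paired by pool, since 1 pool name stands for 1 set of mice. Deviations of same-pool luminal-basal and basal libraries correlated at r = 0.0824. CPM are counts over the TMM-scaled library total. Folds against 0 counts are bounds with 3 counts set over the group, and ratios with 1 to 3 counts have exact binomial intervals (level 0.95).

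The library labels of A5 were exchanged as stated in the report, with Krt14 and Col1a1 left out of counts and tests. The comparison, its members and the gene lists were chosen with earlier results of these data known, and no list is independent evidence of its direction. Some lists share members, so their counts are not separate. The rule for named genes took 12 rises and 12 falls, the largest by fold among calls that averaged 10 CPM or more in the higher group, went one way in both pools and did not overlap, without numbered models, clones and pseudogenes. It added up to 4 called members per list by smallest p (or the 2 of highest CPM where none was called) and Krt14, Epcam, Pecam1, Krt8, Col1a1 and Snai2. Other members were named after their values were seen, and some genes that the rule names are not reported here. Alternatives were RLE scaling, no low-count filter, DESeq2, the 8 null 12-month libraries only, no pool block, the labels as deposited and each of the 4 libraries left out. The test was tried first on simulated counts for luminal-basal against basal with 15602 genes, where 64 of 100 genes changed 4-fold and 98 of 100 changed 16-fold were recovered and 4 unchanged genes were called. Only genes averaging 10 CPM or more were changed, and no pool effect was simulated. Recovery of lower genes was thus not tried, and far fewer genes were changed than were called in the data. Promoter sequences are from RefSeq. Software was edgeR 4.0.16 with limma 3.58.1 and, as an alternative, DESeq2 1.42.0 in R 4.3.3, and scipy 1.17.1 and matplotlib 3.10.9 in Python 3.11.15.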

Additional observations from a re-analysis of the deposited data

How the results depend on the processing

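The 2 counts of called genes stayed within 1.5 times under RLE scaling, without the low-count filter, with DESeq2 and without both A5 libraries of exchanged label, the last chosen after seeing the data. Without the pool as a replicate block 1890 genes were higher and 2081 lower, and 9 of 101 named calls were lost. With only the 8 null 12-month libraries 811 were higher and 1091 lower. With the labels as deposited 465 were higher and 426 lower, as the A5 stromal-type library then stands in the luminal-basal group, and 28 of the 101 named calls held. Leaving out 1 of the 4 libraries gave 1063 to 2984 genes higher and 1427 to 2511 lower, with the fewest higher without A6 basal and the most without A5 basal. Of the 101 named calls 93 held with A6 luminal-basal alone, 87 without A6 luminal-basal, 97 without A5 basal, 88 without A6 basal and 81 under all 4.

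With the labels as deposited, directions reversed to 1.71 for Acta1, -0.072 for Cd74, 0.50 for Col6a1, 1.71 for Dpt, 0.86 for Esr1, 1.28 for Fn1, 0.82 for Ltf, 1.45 for Lum, 1.46 for Myh4, 0.079 for Nid1, 0.71 for Thy1, 2.04 for Tnnt3 and 0.12 for Xirp2 (log2 fold changes, none called). Cd74 also reversed to -0.0667 without both A5 libraries of exchanged label, and over the libraries left out singly it ranged from -0.70 (without A5 basal) to 2.35, Snai2 from -4.86 to 0.81 (without A5 basal) and Krt1 from -5.20 (without A6 luminal-basal) to 7.64. None of the reversed values was called. The cause was not tested, apart from the libraries that each setting leaves out. With 2 libraries a group and 13285 genes detected in A6 basal, low genes are the least certain.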

Other observations

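Gene families not covered above were read by symbol after the values were seen, so the counts describe the data and the families have no test of their own. Each family count here and below is to be read beside the 11.8% of all genes called higher and 12.4% called lower. Of 22 tested Hox genes, which set position along the body, 11 were lower in luminal-basal cells and 0 higher (5 lower and 0 higher with A6 luminal-basal alone), beside 12.4% of all genes lower. Hoxd9 was at 0 and 0.192 CPM in A5 and A6 luminal-basal and at 7.37 and 49.3 CPM in A5 and A6 basal, and Hoxd8 at 0.161 and 0 against 24.2 and 11.7 CPM. Of 5 Iroquois homeobox genes 4 were higher and 0 lower, and 4 were higher with A6 alone. Irx5 was at 13.8 and 32.2 against 0.969 and 0.689 CPM (log2 fold change 4.61 ± 0.56, adjusted p = 1.71e-05 in edgeR). Among 13 Wnt ligand genes 4 were higher and 0 lower, and 3 were higher with A6 alone. Wnt11 was at 17.2 and 12.3 against 2.33 and 0 CPM (3.57 ± 0.82, adjusted p = 0.00408), and Wnt10a at 29.5 and 4.99 against 0.388 and 0 CPM (adjusted p = 0.116 with A6 alone).

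Of 23 interferon-induced genes 11 were lower and 0 higher in luminal-basal cells, and 6 were lower with A6 alone. Ifi203 was at 4.33 and 20.3 CPM in A5 and A6 luminal-basal and at 307 and 656 CPM in A5 and A6 basal (-5.37 ± 0.80, adjusted p = 0.000146), and Ifit1 at 0.963 and 28.6 against 71.9 and 177 CPM. Among 21 chemokine genes 7 were lower and 3 higher, and 6 and 3 with A6 alone. Cxcl9, which draws T cells, was at 3.05 and 4.22 against 181 and 281 CPM (-5.97 ± 0.45, adjusted p = 3.45e-07). Cxcl12 was at 172 and 125 against 996 and 685 CPM (-2.49 ± 0.31, adjusted p = 2.17e-05), while Cxcl14 was higher, at 324 and 188 against 12.2 and 21 CPM (3.86 ± 0.66, adjusted p = 0.000433). Of 39 collagen genes other than Col1a1 13 were higher and 17 lower, and 11 and 15 with A6 alone.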
